A study of Mus musculus with 2 samples.

Results

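The 5 genes described here, Peg3, Igf2, Snrpn, Gnas and Cdkn1c, are imprinted genes with roles in growth or development. They were chosen by name, and every non-control probe that the array files assign to 1 of these symbols was taken, giving 14 of 15208 probes and 5 of 11109 gene names. Igf2, Peg3 and Snrpn had 2 probes each, Gnas had 7 and Cdkn1c had 1. No probe of these genes was saturated or marked as an outlier on either array. Of the 14 probes, 9 were well above background on both arrays, 1 was so on the busulphan array only, and 4, all of them Gnas probes, were so on neither.

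The RNA came from cells isolated from the testes of Swiss mice, male and 3 months old, and labelled as Sertoli cells, which line the seminiferous tubule and nurse its germ cells. One preparation was made 1 month after 25 mg/kg of busulphan, an alkylating drug widely used to deplete germ cells, and the other came from untreated controls. Per the labels' protocols, the cells were collected by enzymatic digestion and straining and were not cultured. With 1 single-colour array per preparation, n = 1 per group, no p-value is given, and preparation, array and group cannot be told apart. How many mice each preparation pooled is not given in the labels.

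Genomic imprinting leaves a gene expressed from the allele of 1 parent, under the control of DNA methylation set in the germ line. Many paternally expressed genes promote growth of the fetus and many maternally expressed genes restrain it. Igf2, a growth factor, Peg3, a zinc-finger transcription factor, and Snrpn, which encodes the splicing protein SmN, are expressed from the paternal allele. Cdkn1c encodes p57Kip2, a cyclin-dependent kinase inhibitor, and is expressed from the maternal allele. Gnas is a compound locus. Its main product, the stimulatory G protein subunit Gs alpha, is read from both alleles in most tissues and mainly from the maternal allele in a few, the Nesp transcript is maternal, and the XLalphas and exon 1A transcripts are paternal. Imprints are erased and set anew in the male germ line, so parental classes taken from somatic tissue need not hold for germ cells. The arrays measure total RNA of both alleles.

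The probes on which the main values rest are printed next, 5′ to 3′ as the files give them, to show what each spot reads. For Gnas, the first is described as Gs alpha, the second is assigned to transcript variant 8 and to other Gnas transcripts, and the third to a noncoding RNA that overlaps exon 1A and the first exons. Capitals mark the bases at which the 2 Snrpn probes differ where they overlap.
Peg3 A_51_P206037: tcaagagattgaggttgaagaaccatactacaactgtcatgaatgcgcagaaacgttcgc
Gnas A_52_P112182: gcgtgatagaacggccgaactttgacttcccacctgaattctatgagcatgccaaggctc
Gnas A_52_P112188: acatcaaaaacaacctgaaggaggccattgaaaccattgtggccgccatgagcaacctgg
Gnas A_51_P335321: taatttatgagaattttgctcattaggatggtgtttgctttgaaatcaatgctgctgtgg
Snrpn A_51_P168862: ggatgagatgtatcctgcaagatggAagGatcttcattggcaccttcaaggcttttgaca
Snrpn A_52_P354390: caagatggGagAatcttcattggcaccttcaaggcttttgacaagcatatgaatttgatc

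The 2 Snrpn probes lie 17 bases apart on the transcript and share 43 positions with 2 mismatches, so they are not independent readings. None of the 14 probes shared a run of 20 bases with a probe of another gene name on the array. The best ungapped overlap of either Snrpn probe with the probe of Snrpb, the closely related gene for SmB, left 21 mismatches or more. Both comparisons were between probes, which may read different parts of their transcripts. They therefore do not show whether the Snrpn probes can also bind Snrpb RNA, and no transcript sequence was searched. Coordinates are those of the files, on mouse build mm9. Whether a probe falls in coding or other sequence is not stated in the files, and a genome was not used here.

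Of the 5 genes, Peg3 and Gnas were higher in the busulphan library by 2-fold or more, Snrpn and Cdkn1c were lower by 2-fold or more, and Igf2 lay within 2-fold. Among 9438 genes compared, 31.3% passed 2-fold upward and 29.5% downward, so differences of this size were common across the array. Of the 10 probes above background on at least 1 array, 5 passed 2-fold upward and 3 downward, against 31.6% and 29.0% of 12852 probes. At a threshold of 4-fold, Peg3 and Gnas remained upward (14.4% of all genes) and Cdkn1c downward (17.7%), and at 1.5-fold Igf2 joined the upward genes (39.5% of all genes, with 37.0% downward). The ratios are log2 of the processed signal in the busulphan library over the control library, each array scaled to its own 75th percentile, a signal of 905 on the busulphan array and 1046 on the control array. The median ratio of all genes was 0.07. The error given with a ratio is the scanner software's own error of the spots, and it holds no spread between mice. Every gene's value is that of its probe with the highest mean level.

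**Figure D1:**
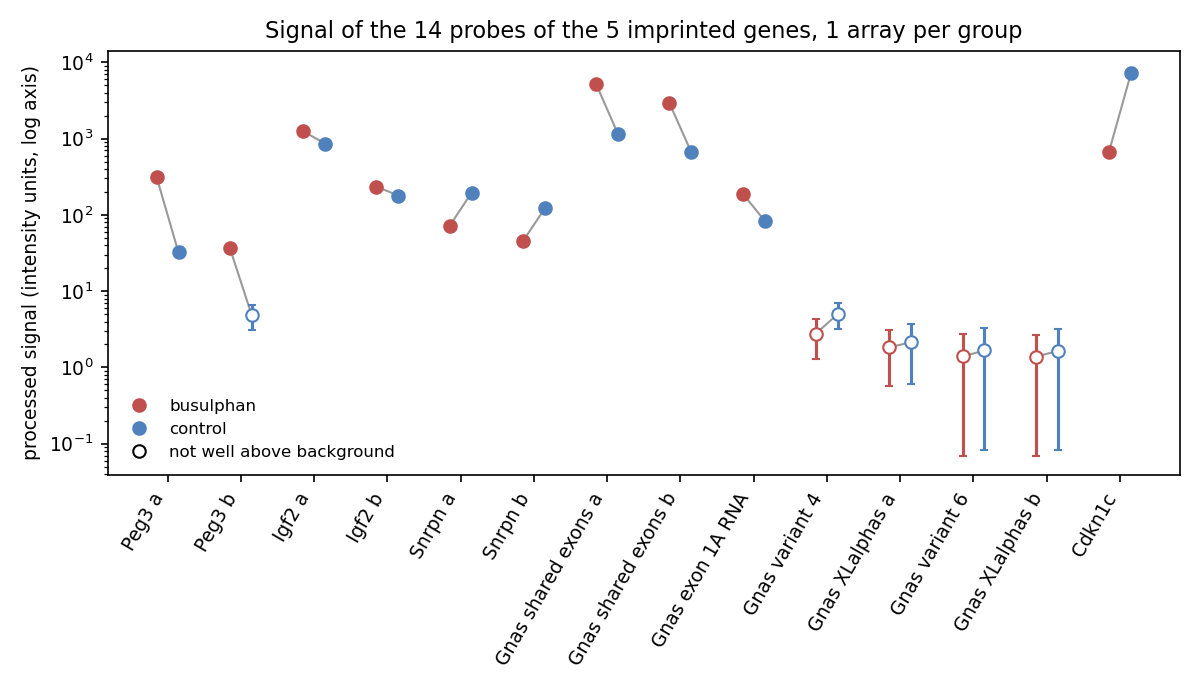
Processed signal of each of the 14 probes on a log axis, with the busulphan array (red) left of the control array (blue) and the software's error of each spot as bars (shortened where the error comes near to the signal). Open circles are spots not well above background. Peg3 and the 3 brighter Gnas probes are higher on the busulphan array, Snrpn and Cdkn1c are higher on the control array, and 4 Gnas probes sit below 10 units on both.

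Among the paternally expressed genes, Peg3 had the highest ratio. Its brighter probe (A_51_P206037, chr7:6660440-6660499, minus strand) had a signal of 315 on the busulphan array and 32.1 on the control array. After scaling this was 11.3-fold higher in the busulphan library (log2 3.50, software error 0.22). The other probe (A_52_P235861, chr7:6658774-6658833, minus strand) had a signal of 37.0 on the busulphan array and 4.81 on the control array, where it was not well above background. It was therefore at least 5.70-fold higher (log2 2.51 as a bound, 3.15 as measured). With the second probe at its bound, its ratio lay 0.99 below that of the first on the log2 scale (software error 0.57), which is the most that the bound allows. Both probes were dim on the control array, and with normexp background correction their log2 ratios were 2.21 and 0.79, the second within 2-fold.

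Igf2, the growth factor ligand, was within 2-fold on both probes. Probe A_51_P516826 (chr7:149836673-149836709, minus strand, with 37 of its 60 bases placed in the files) had a signal of 1247 on the busulphan array and 862 on the control array, a log2 ratio of 0.74 (1.67-fold, software error 0.20). Probe A_51_P516833 (chr7:149837115-149837174, minus strand) had 235 on the busulphan array and 179 on the control array, a log2 ratio of 0.60 (1.51-fold). The 2 ratios differed by 0.14, less than their software error of 0.29. The sign depended on the scaling. Against the spike-in controls the ratios were -0.15 and -0.29.

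Snrpn was lower on both of its overlapping probes. Probe A_52_P354390 (chr7:67132330-67132389, minus strand) had a signal of 71.6 on the busulphan array and 195 on the control array, 2.36-fold lower in the busulphan library (log2 -1.24, software error 0.21). Probe A_51_P168862 (chr7:67132347-67132406, minus strand) had 45.1 on the busulphan array and 122 on the control array, 2.34-fold lower (log2 -1.22). With normexp background correction both lay within 2-fold, at -0.81 and -0.62.

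Cdkn1c, the maternally expressed cell cycle inhibitor, had the lowest ratio of the 5 genes. Its only probe (A_51_P339540, chr7:150644753-150644812, minus strand) had a signal of 677 on the busulphan array and 7199 on the control array. This was 9.20-fold lower in the busulphan library (log2 -3.20, software error 0.20). The ratio lay between -4.09 and -2.98 over the other scalings, the background correction and the deposited table. The settings for bounds, dim spots, saturation and choice of probe could not move it, since its only probe was bright and unsaturated.

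Gnas was higher on each of the 3 probes that were well above background. Probe A_52_P112182, whose 60 bases span 1330 bases of the genome at chr2:174167396-174168725 (plus strand) and so cross spliced exons, had a signal of 5179.5 on the busulphan array and 1138 on the control array. It was 5.26-fold higher in the busulphan library (log2 2.40, software error 0.20). Probe A_52_P112188 (chr2:174167177-174167338, plus strand, 162 bases for its 60) had 2922 on the busulphan array and 658 on the control array, 5.14-fold higher (log2 2.36). These 2 probes lie in downstream exons that Gs alpha, XLalphas and Nesp transcripts are known to share, and their ratios differed by 0.03 (software error 0.29).

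The noncoding RNA that overlaps exon 1A had 1 probe (A_51_P335321, chr2:174158317-174158376, plus strand). The files do not say which of its exons the probe reads. It need not read exon 1A at all, and it may read sequence of other Gnas RNAs. It had a signal of 190.0 on the busulphan array and 83.8 on the control array. It was 2.62-fold higher in the busulphan library (log2 1.39, software error 0.21). The ratio of the first shared-exon probe was 1.01 above it on the log2 scale (software error 0.29), and between 1.01 and 1.56 above it over the scalings and the background correction. The ratio of this probe lay within 2-fold with cyclic loess (0.96) and against the spike-in controls (0.50).

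The probes for other Gnas transcripts were not well above background on either array. The variant 4 probe (A_52_P219393, chr2:174109894-174109953, plus strand), the most upstream of the mapped Gnas probes, had a signal of 2.77 on the busulphan array and 5.05 on the control array. A probe described as XLalphas (A_51_P326769, chr2:174127292-174127351, plus strand) had 1.83 on the busulphan array and 2.15 on the control array. The variant 6 probe (A_52_P190394, chr2:174125482-174125541, plus strand) had 1.39 on the busulphan array and 1.67 on the control array, and a further XLalphas probe without coordinates (A_52_P431319) had 1.38 on the busulphan array and 1.64 on the control array. The lowest signal that the software called well above background was 6.26 on the busulphan array and 7.50 on the control array, so no fold is given for these 4 probes. The shared-exon signals therefore cannot be assigned to 1 transcript from these values, although neither XLalphas probe was well above background.

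**Figure D2:**
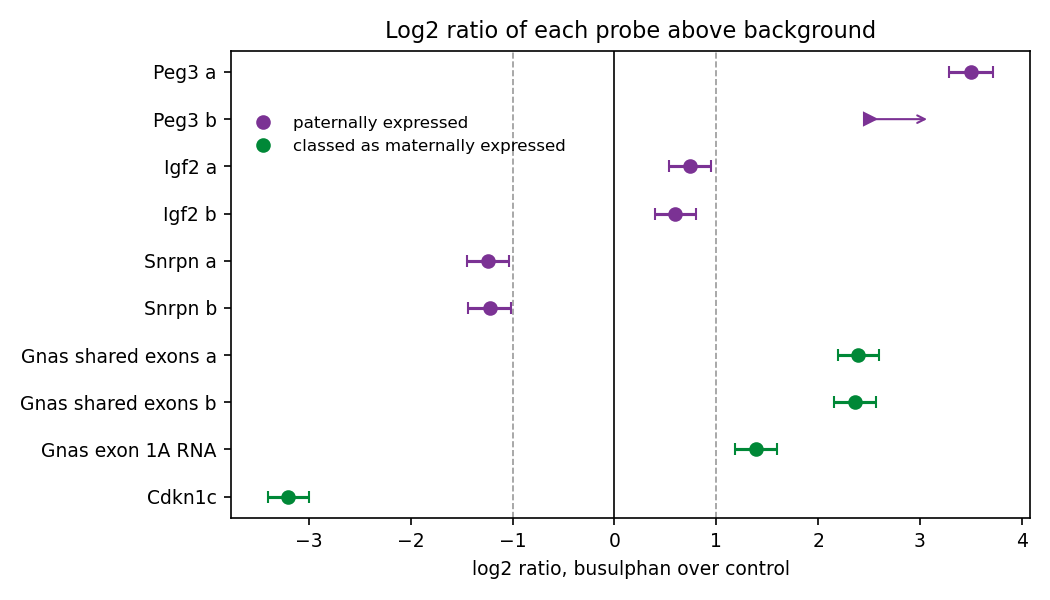
Log2 ratio (busulphan over control) of the 10 probes well above background on at least 1 array, with the scanner software's error as bars, and the lower bound of the second Peg3 probe as an arrow. Dashed lines mark 2-fold. Paternally expressed genes (purple) span -1.24 to 3.50 and genes classed as maternally expressed (green) span -3.20 to 2.40, so the classes overlap.

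RefSeq promoter windows on GRCm38.p6 were found for 4 of the 5 genes, 13 windows in all. Here the 250 bases upstream of each start site were searched for CG dinucleotides, the sites of the methylation that marks an imprint. Over 32851 windows of all genes the median was 6 CG. The Peg3 window held 8, the 4 Igf2 windows held 6, 22, 10 and 1, and the 4 Snrpn windows held 2 to 4. The 4 Gnas windows held 14, 21, 22 and 29. A Gnas window at chr2:174327518-174327767 overlaps the first window printed next, and next downstream here means past both. The 2 Gnas windows printed next were taken, by their position, to precede exon 1A and the start site next downstream in that sense, since the table does not name the transcripts. They are shown to compare their CG content, which capitals mark.
Gnas exon 1A window, chr2:174327499-174327748, plus strand: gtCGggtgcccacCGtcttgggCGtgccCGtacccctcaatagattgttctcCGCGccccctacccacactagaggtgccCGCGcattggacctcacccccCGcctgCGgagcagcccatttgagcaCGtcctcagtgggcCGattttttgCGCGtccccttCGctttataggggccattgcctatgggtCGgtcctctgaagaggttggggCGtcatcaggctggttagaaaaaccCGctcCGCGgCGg
Gnas window next downstream, where Gs alpha is known to start, chr2:174329756-174330005, plus strand: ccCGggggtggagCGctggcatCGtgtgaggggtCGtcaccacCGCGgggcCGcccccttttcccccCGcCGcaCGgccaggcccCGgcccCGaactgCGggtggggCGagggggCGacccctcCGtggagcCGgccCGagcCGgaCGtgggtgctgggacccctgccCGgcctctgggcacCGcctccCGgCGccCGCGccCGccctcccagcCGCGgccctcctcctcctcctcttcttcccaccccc

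The exon 1A window had a GC content of 63.2%, and 16.3% of all windows held as many CG or more. The window next downstream had 80.0% GC, and 6.78% of all windows held as many CG or more. The letters TTTATAG, searched on both strands, were found in the first 3 Gnas windows and not in the last, and 3.21% of all windows held them. A match is a description of the letters only. DNA methylation was not measured.

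Set by parental class, with 1 probe per gene, the 3 paternally expressed genes had a median log2 ratio of 0.74 and the 2 genes classed as maternally expressed had a median of -0.40. The difference was 1.14 with a combined software error of 0.25, but each class held genes on both sides of 0. It rested on how Gnas was counted. Without Gnas it was 3.94, and over all probes above background in place of 1 per gene it turned to -1.21. There 3 Gnas probes, 1 of them assigned to the exon 1A RNA, stood beside 1 Cdkn1c probe in the maternal class. With Gnas read by the probe assigned to its exon 1A RNA and put in the paternal class, the difference was 4.27. That choice was made after the values were seen. The probe need not read exon 1A, so its paternal class is not settled. The classes of these 5 genes were therefore not separated by their ratios.

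**Figure D3:**
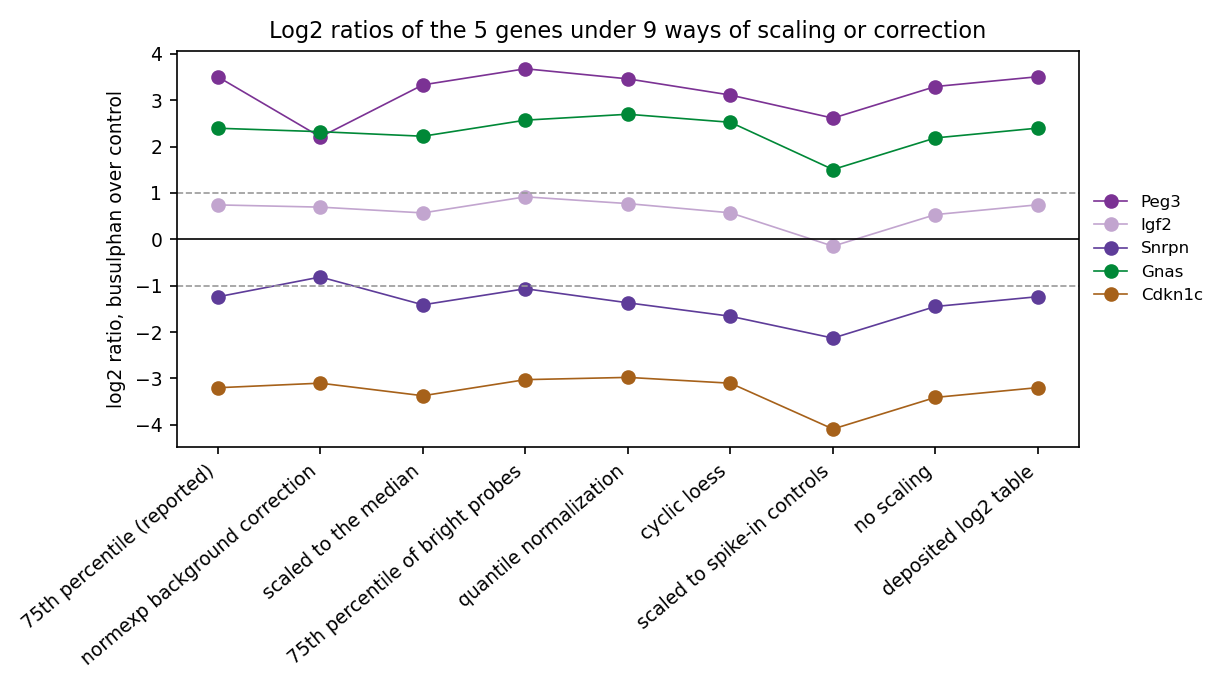
Log2 ratio of each gene (busulphan over control, y axis) under the reported scaling and 8 other scalings, corrections or sources (x axis); dashed lines mark 2-fold. Peg3 and Gnas stay above the upper line and Cdkn1c stays at -2.98 or lower in all of them, Snrpn is within 2-fold with normexp only, and Igf2 is below 0 against the spike-in controls only.

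Other imprinted genes were taken from lists of known paternally and maternally expressed genes. Imprinting can be limited to certain tissues, so a listed class need not hold in the cells measured here. Of 63 genes listed, 36 had a probe and 33 were compared, of which 14 passed 2-fold upward, in the busulphan library, and 8 downward. Over all genes compared, 31.3% passed upward and 29.5% downward, the shares to set beside each count below. The median log2 ratio of the 33 was 0.74. Without the 5 genes above, the counts among 28 were 12 upward and 6 downward, and the median was 0.72. Against the spike-in controls the balance turned, with 6 of the 33 upward and 12 downward. Of all 9438 genes, 1510 were then upward and 4389 downward. This scaling lowers measured ratios by a fixed amount, and the median of all genes was then -0.82. The spike-in values of each list below carry the same shift, and their counts are to be set beside these 1510 and 4389 genes.

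Of 12 genes compared that are listed as paternally expressed, 6 passed 2-fold upward and 2 downward (31.3% and 29.5% of all genes). The median was 0.90. After Peg3, the highest was Plagl1, a zinc-finger regulator of other imprinted genes, with a signal of 1744 on the busulphan array and 437 on the control array (4.61-fold higher). The lowest was Rasgrf1, a Ras exchange factor, whose control signal was 109 and which was not well above background on the busulphan array, a log2 ratio of -3.91 or lower on the probe with the highest mean level. Another of its probes had a log2 ratio of 1.19. Against the spike-in controls this list held 2 higher and 2 lower genes, with a median of 0.01 (-0.82 over all genes).

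Of 21 genes compared that are listed as maternally expressed, 8 passed 2-fold upward and 6 downward (31.3% and 29.5% of all genes). The median was 0.34. The highest were Ppp1r9a, an actin-binding scaffold of protein phosphatase 1 (9.44-fold), and Dhcr7, which makes cholesterol from its last precursor (8.08-fold). The lowest was Slc22a18, a transporter of the same imprinted domain as Cdkn1c, with a signal of 115 on the busulphan array and 3011 on the control array (22.8-fold lower). It and Cdkn1c were the 2 lowest of the list. With the spike-in scaling the list held 4 higher and 10 lower genes and its median was -0.56 (-0.82 over all genes).

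Imprinted neighbours were compared for Cdkn1c, Snrpn and Igf2, and in each of these regions ratios lay on both sides of 0. In the Kcnq1 domain around Cdkn1c, 2 of 7 genes passed 2-fold upward and 3 downward (31.3% and 29.5% of all genes). Cd81, a membrane tetraspanin, had a log2 ratio of 2.32 and Phlda2, a growth restrainer of the placenta, 1.80, while Kcnq1, a potassium channel subunit, had -2.66 and Slc22a18 -4.51. Around Snrpn, in the Prader-Willi and Angelman region, 1 of 5 genes was higher and 2 were lower. The higher gene, Ndn, which restrains the growth of neurons, had a log2 ratio of 1.00, at the threshold, and no gene of the region passed 2-fold upward in 6 of the 8 other scalings, corrections or sources. Mkrn3, a ring-finger protein, had 0.78. Ube3a, a ubiquitin ligase, had -0.68 and Atp10a, a phospholipid flippase, -2.33. Beside Igf2, Ins2, 1 of the mouse insulin genes, had a ratio of 0.80 and Th, the enzyme that starts catecholamine synthesis, -2.47. Next to Peg3, Zim1 was not well above background on either array.

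The imprinted gene network is a set of genes known to be expressed together with Plagl1 in growing tissues. Of its 13 members compared, which include Peg3, Igf2, Gnas and Cdkn1c, 9 passed 2-fold upward and 1 downward. Their median log2 ratio was 1.51, against 31.3% higher, 29.5% lower and a median of 0.07 over all genes. Without those 4 genes, 7 of 9 were higher and none lower. The 7 include Ndn, at the threshold with a log2 ratio of 1.00, and Dcn, whose probes disagree in sign. The highest was Gatm, the first enzyme of creatine synthesis, with a signal of 5904 on the busulphan array and 280.4 on the control array (24.3-fold higher). Cdkn1c was the lowest and Dlk1, a Notch-like membrane protein, the next, at 1.42-fold higher. For Grb10, an adaptor of growth factor receptors, the ratio used was 0.66 and its other probes lay on both sides of 0, the lowest at -2.73, and for the matrix proteoglycan Dcn it was 1.63 with -1.82 on the other probe. The spike-in scaling left 4 members higher and 1 lower, where 1510 of all 9438 genes were higher and 4389 lower.

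**Figure D4:**
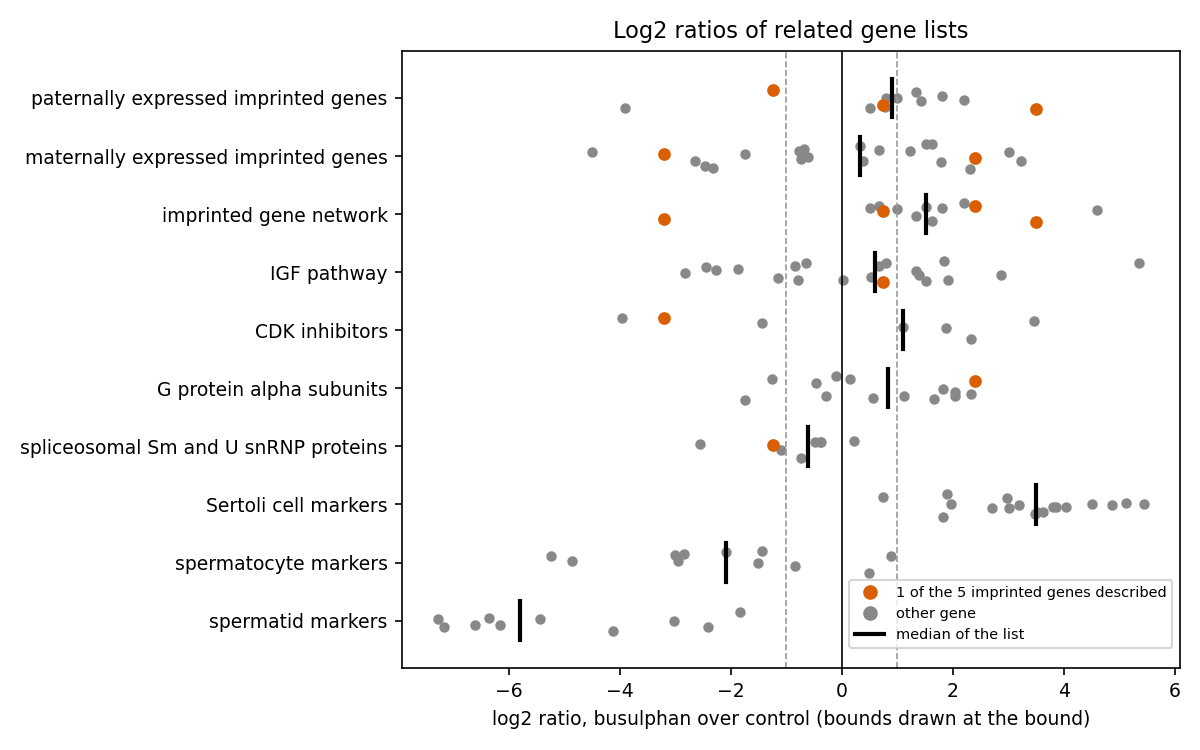
Log2 ratios (busulphan over control) of single genes in 7 related gene lists and 3 lists of cell type markers, with bounds drawn at the bound, the described imprinted genes in orange, other genes in grey and each list's median as a black bar; dashed lines mark 2-fold. Imprinted lists spread to both sides of 0, whereas 17 of 18 Sertoli markers lie above 1 and all 10 spermatid markers below -1.

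Igf2 acts through the IGF pathway, in which Igf1r transmits the signal, Igf2r takes up and degrades Igf2, and binding proteins hold the ligands. Of 20 genes compared, 7 passed 2-fold upward and 5 downward (31.3% and 29.5% of all genes). The median was 0.59. Igfbp3, the main binding protein of serum, had a signal of 3121 on the busulphan array and 88.0 on the control array, 41.0-fold higher. Igf1r was 7.29-fold higher, and its other probes gave log2 ratios of 3.18 to 3.56. Igf2r was 2.85-fold higher (1331 on the busulphan array and 540.4 on the control array). The lowest were Insr, the insulin receptor, 7.06-fold lower, and the binding protein gene Igfbp1, at least 5.48-fold lower. Igf1, the sister ligand, had a log2 ratio of -0.64, and its other probes gave -2.80 and -0.24. With the spike-in scaling the list held 3 higher and 8 lower genes. Its median was then -0.30, where that of all genes was -0.82.

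Among the genes for cyclin-dependent kinase inhibitors, the Cip/Kip relatives of Cdkn1c had the opposite sign. Of 7 genes compared, 4 passed 2-fold upward and 3 downward (31.3% and 29.5% of all genes). The median was 1.11. Cdkn1a, which encodes p21, had a signal of 1349.7 on the busulphan array and 141 on the control array (11.0-fold higher), and Cdkn1b, which encodes p27, had 60.2 on the busulphan array and 13.9 on the control array (log2 2.33). The lowest were Cdkn2c, 15.6-fold lower (771 on the busulphan array and 13914 on the control array), and Cdkn1c. With the spike-in scaling the list held 2 higher and 3 lower genes, where 1510 of all 9438 genes were higher and 4389 lower.

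Gs alpha couples hormone receptors to adenylyl cyclase, and in Sertoli cells it carries the signal of follicle-stimulating hormone. Of 14 genes for G protein alpha subunits, 7 passed 2-fold upward and 2 downward (31.3% and 29.5% of all genes). The median was 0.84. Gnas and Gna13 were the highest, with log2 ratios of 2.40 and 2.33. Gnal, the close relative of Gnas in olfactory neurons, had -1.74, and Gna15 had -1.26. Of 19 receptors and cyclases, 6 passed 2-fold upward and 4 downward (31.3% and 29.5% of all genes). The median was 0.29. Fshr, the receptor for follicle-stimulating hormone, had a signal of 769.7 on the busulphan array and 30.3 on the control array (29.4-fold higher), and the cyclase Adcy9 was 8.88-fold higher. Adcy10, the soluble cyclase needed for sperm motility, had 741 on the busulphan array and 42106 on the control array (49.2-fold lower). It is counted in this list, although it is not a target of Gs alpha. The adrenergic receptor gene Adrb1 had a ratio of -2.19, with 0.60 on its other probe. Against the spike-in controls the median was -0.05 for the alpha subunits, -0.61 for the receptors and cyclases and -0.82 over all genes.

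SmN belongs to the Sm proteins of the spliceosome. Of 8 genes for Sm and U snRNP proteins compared, none passed 2-fold upward and 3 passed it downward (31.3% and 29.5% of all genes). The median was -0.61. The lowest were Snrpd2 (log2 -2.56), Snrpn and Snrpd1 (-1.09). Snrpb and Snrpg were the highest, at 0.22 and -0.37. With the spike-in scaling 7 of the 8 passed 2-fold downward, as did 4389 of all 9438 genes. Of 8 genes listed as partners of Peg3 in the p53 and TNF pathways, 3 passed 2-fold upward and none downward. The shares of all genes were 31.3% and 29.5%. The median of the 8 was 0.36. Pgm1, a glucose phosphate mutase, had a ratio of 2.31, and Siah2, a ubiquitin ligase, had 1.75. Pgm1 is 1 of the 3 upward genes, and its link to Peg3 is not established here. Becn1, an autophagy factor, had -0.63, and Traf2, a TNF receptor adaptor, had -0.58. The median of these 8 was -0.53 against the spike-in controls, where that of all genes was -0.82.

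Cell type markers moved with these values. Of 18 Sertoli cell markers compared, 17 passed 2-fold upward and none downward, where 31.3% and 29.5% of all genes did. The summed signal of these markers, in multiples of the 75th percentile, was 139 on the busulphan array and 12.9 on the control array. Sox9, the Sertoli fate regulator, had 5173 on the busulphan array and 172 on the control array. All 10 spermatid markers passed 2-fold downward, with a summed signal of 41.6 on the busulphan array and 512 on the control array, and 8 of 11 spermatocyte markers were lower, with 40.5 on the busulphan array and 217 on the control array. Prm1 and Tnp2, which package sperm chromatin, were saturated on the control array and at least 3.55-fold and 98.3-fold lower. The control preparation thus held abundant germ cell RNA beside its label. The busulphan preparation was not free of it. There Prm1 still had a signal of 15269, above that array's 75th percentile of 905, and Tnp2 had 563.

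Markers of other cells moved as well, beside shares over all genes of 31.3% higher and 29.5% lower. Of 9 macrophage markers, 7 were higher and none lower, with a summed signal of 8.07 on the busulphan array and 1.29 on the control array. Leydig cell markers gave 2 upward and 1 downward of 7, with a median of 0.11. Star, the cholesterol carrier of steroid synthesis, was the highest of them (11.7-fold higher), Hsd17b3, which makes testosterone, was the lowest (log2 -1.93), and the steroid enzyme genes Cyp11a1 and Cyp17a1 had ratios of 0.11 and -0.24. Of 10 spermatogonium markers, 2 were higher and 2 lower. Peritubular myoid markers gave 2 higher and none lower of 6, endothelial markers 1 higher and 3 lower of 8, and red blood cell markers 1 of each of 4. Against the spike-in controls the Leydig, peritubular and spermatogonium lists had negative medians (-0.78, -0.18 and -0.98), and that of all genes was -0.82. The part that cell content has in the ratios of the 5 genes was not tested, and in such a mixture fewer cells of a type and less RNA per cell cannot be told apart.

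The gene whose 2 scaled log2 levels lay nearest each of the 5, by the sum of squared differences over the 2 arrays among named genes, was taken as a description. It was Zfp280c for Peg3 (0.00827), Galntl2 for Igf2 (0.00114) and Cacna1d for Snrpn (0.00278). Qdpr lay nearest Gnas (0.000113) and Mrpl1 nearest Cdkn1c (0.00247). With 2 arrays many genes lie close to any given one.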

How the data were processed

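Gene expression was measured in 1 busulphan and 1 control preparation on single-colour arrays of 15744 spots, which share a slide and a scan time per the file headers. The deposited intensity values are processed signals of Agilent Feature Extraction 11.5.1.1, background-subtracted and detrended by the software per the file headers. The deposited log2 table equals log2 of that signal with a constant added per array (-9.82 for busulphan, -10.03 for control), with column medians of -2.77 and -2.94 on the same arrays.

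The values here are log2 processed signal minus each array's 75th percentile over 15208 non-control probes of 60 bases, computed with Python 3.11.15, numpy 2.4.6, pandas 2.3.3, R 4.3.3 and limma 3.58.1. Probes well above background numbered 12064 (79.3%) on the busulphan array and 12302 (80.9%) on the control array, and 18 and 106 were saturated on these arrays. The 4 outlier probes were left out. A spot dim or saturated on 1 array gives a bound, the bright value over the higher of the dim spot and the lowest signal well above background on that array, and 1034 genes carry one. Symbols came through RefSeq accessions for 13300 probes. A gene was called where its log2 ratio reached 1 or -1. Precision is limited by the number of arrays.

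The genes, lists, alternatives and rules were chosen with earlier results of these data known. Named are all probes of the 5 genes, the 2 highest and 2 lowest genes of each pathway or imprinted list (not of the marker lists), the gene nearest each member, and Fshr, Sox9, Prm1, Tnp2 and Star. Kcnq1, Ube3a, Zim1, Igf2r, Igf1, Grb10, Dcn, Snrpd1, Dnmt3a, Hsd17b3, Cyp11a1 and Cyp17a1 fall outside this rule and were chosen after their values were seen. Alternatives were other scalings, normexp background correction (offset 50), the deposited table, filters, the choice of probe and thresholds.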

Additional observations from a re-analysis of the deposited data

How the results depend on the processing

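Of the 15 alternatives, the count of the 5 genes called higher was 3 with a threshold of 1.5-fold and 2 under all others. The count lower was 1 in place of 2 with normexp background correction and with a 4-fold threshold, and 2 under the other alternatives. Of 33 imprinted genes, 6 in place of 14 were higher against the spike-in controls and 6 with a 4-fold threshold, and 6 to 12 were lower. Of all 9438 genes, 1510 were higher and 4389 lower against the spike-in controls. At 4-fold, 14.4% of all genes were higher and 17.7% lower. The difference between parental classes was 0.86 with cyclic loess, 3.94 with Gnas left out and -1.21 over all probes above background, in place of 1.14. It was 4.27 with Gnas read by the probe assigned to its exon 1A RNA, chosen after seeing the data. The last 3 differ by construction in the genes or probes each class holds, and for cyclic loess the cause was not tested.

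Peg3, Gnas and Cdkn1c kept their direction and stayed past 2-fold under 13 alternatives each. The settings for bounds, dim spots and saturation left these values unchanged, so they add no support. The median over probes could move Peg3 and Gnas only. Scaling moved the median ratio of all genes by -0.17 (median), 0.17 (bright probes), 0.12 (quantile), -0.20 (none) and -0.88 (spike-in), where 1510 genes were higher and 4389 lower, 25.6% of calls against 51.5%. Signal over background limits the second Peg3 probe and 4 Gnas probes. Slide and scan were shared by both arrays, so no block could be fitted. No paired analysis was possible because each group has 1 array.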

Other observations

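Genes that set, copy or protect the methylation of imprints were measured on the same arrays. Of 11 compared, 1 passed 2-fold upward and 5 downward in the busulphan library. Their median log2 ratio was -0.97, against 31.3% upward, 29.5% downward and a median of 0.07 over all genes. Dnmt3l, a cofactor of the methyltransferases that set imprints in male germ cells, had a signal of 84.7 on the busulphan array and 1552 on the control array, 15.9-fold lower. Zfp57, a zinc-finger protein that protects imprints in embryos, was next (log2 -2.86), with a signal of 6.94 on the busulphan array and 58.3 on the control array. The highest were Dnmt3b, a methyltransferase (1.18), and Dnmt1, which copies methylation at replication (0.63). For the methyltransferase gene Dnmt3a the probe used gave 0.15, but its other probes passed 2-fold upward, at 1.29 and 1.80. The median of the list depended on the normalization. It was -0.05 with quantile normalization, under which 1 gene was higher and 4 were lower, and -0.26 with cyclic loess (none and 5). Against the spike-in controls it was -1.86 (none and 6), where the median of all genes was -0.82. Spermatid and spermatocyte markers were lower in the same library, and their part in these values was not tested.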
